A study of Mus musculus with 12 samples.

Results

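The 10 genes *Fabp3*, *Fabp5*, *Fabp7*, *Acsbg1*, *Cpt1a*, *Cpt1c*, *Cpt2*, *Acadl*, *Acadvl* and *Hadhb* encode proteins that bind long-chain fatty acids, activate them, carry them into mitochondria and oxidise them. They were chosen by gene symbol for these roles, with earlier results of these data known. All 10 were found among the 55471 genes of the count table. All 10 also passed the filter on low counts that left 19578 genes to test. The study knocked down *Neuid*, a long intergenic noncoding RNA annotated as Gm10419 (ENSMUSG00000072769), in primary mouse hippocampal neurons and measured total RNA by sequencing. A gapmer is an antisense oligonucleotide that directs RNase H to its target RNA, and here the gapmers were delivered in lipid nanoparticles. The control group received a gapmer with no known target and the *Neuid* KD group a gapmer against *Neuid*, with 6 libraries in each. All cultures were wild type, came from CD1 embryos (embryonic day 17, litters of mixed sex) and were kept in Neurobasal medium with B27. Both groups were treated at DIV (day in vitro) 7 and collected at DIV 10. The plot of the knockdown in the sequenced samples that was published with the data states a smaller n than the number of libraries deposited per group, and the sources do not say which libraries are separate cultures. The p-values therefore measure the spread between these samples.

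Between 18002585 and 30914714 reads were counted on genes in a control library, and between 11152556 and 30573480 in a *Neuid* KD library. Levels are given as CPM, which are read counts of a gene scaled by the normalised total of each library. *Neuid* itself was looked at first in every library, as a check of the labels. It lies on the plus strand of chromosome 5 (GRCm38, 108367769 to 108378239) and was at 26.0, 28.2 and 31 CPM (lowest, median and highest control library) against 6.32, 8.07 and 9.55 CPM in *Neuid* KD. Every *Neuid* KD library was below every control library, as the labels require. *Neuid* fell by 1.81 on the log2 scale, with an adjusted p of 1.3e-10 in edgeR's quasi-likelihood test.

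Long-chain fatty acids are poorly soluble, and fatty acid binding proteins hold them in the cytosol while acyl-CoA synthetases couple them to coenzyme A. Carnitine palmitoyltransferases of the outer and inner mitochondrial membrane then move the acyl chain into the matrix, where acyl-CoA dehydrogenases and the mitochondrial trifunctional protein shorten it step by step. In the brain this oxidation takes place largely in astrocytes, and FABP7 is known as a protein of radial glia and astrocytes.

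*Acsbg1*, *Fabp7*, *Acadl*, *Cpt1a* and *Fabp5* were higher in *Neuid* KD, so that at least 1 gene rose at each of the steps of binding, activation, entry into mitochondria and oxidation. *Acsbg1* was at 4.18 times its control level, *Fabp7* at 2.83 times, *Acadl* at 2.04 times, *Cpt1a* at 1.89 times and *Fabp5* at 1.31 times. The 5 others, *Fabp3*, *Cpt1c*, *Cpt2*, *Acadvl* and *Hadhb*, did not pass the test. A gene is called here when its adjusted p, over all tested genes, is under 0.05. By that rule 5 of the 10 genes were called, against 8.72% of all tested genes, and the 5 were higher, against 6.31% of tested genes called higher. Since the 10 genes were chosen with earlier results known, these counts and the median below describe them and do not test the pathway. None of the 10 was called lower by edgeR with the TMM normalization and all 12 libraries, where 2.42% of tested genes were, and none by DESeq2. In some fits on fewer libraries *Fabp3* was called lower, as given with that gene below. With upper-quartile normalization *Fabp3* was called lower, as were 1259 of all tested genes against 473 with TMM. *Fabp3* was the only 1 of them that was lower at an unadjusted p under 0.05. The median log2 fold change of the 10 genes was 0.35, beside -0.03 over all tested genes. With an added requirement of an absolute log2 fold change above 0.5, 4 of the 10 passed, all higher, against 3.23% of tested genes in either direction and 2.44% higher. The libraries of the groups did not overlap for the 5 called genes, against 5.70% of all tested genes.

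**Figure D1:**
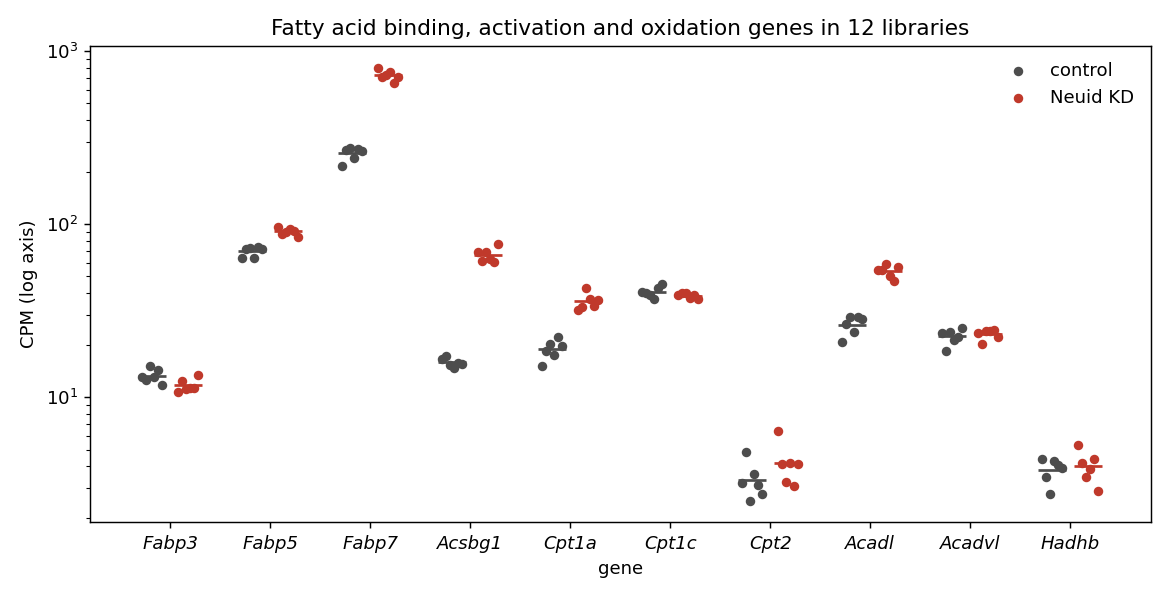
CPM of each of the 10 genes on a log axis, 1 point per library, with the 6 control libraries in grey and the 6 *Neuid* KD libraries in red and a line at each group's mean. *Fabp7*, *Fabp5*, *Acsbg1*, *Cpt1a* and *Acadl* show no overlap between the groups, and the other 5 genes do.

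Among the fatty acid binding proteins, *Fabp7* was the most abundant on every scale used. This brain-type binding protein, encoded on the plus strand of chromosome 10 (57784881 to 57788450), was at 218, 267 and 276 CPM in the lowest, median and highest control library and at 655, 723 and 803 CPM in *Neuid* KD. The lowest *Neuid* KD library thus lay far above the highest control library, and the ranges within each group were narrow beside the gap between them. Its mean went from 257 ± 22.5 CPM (SD, n = 6) to 727 ± 49.9 CPM (SD, n = 6). It rose by 1.5 on the log2 scale (standard error 0.064) and was higher in 6 of 6 libraries, with an adjusted p of 4.9e-11 in edgeR.

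*Fabp5*, the epidermal-type binding protein, is expressed in many cell types and lies on the plus strand of chromosome 3 (10012548 to 10016607). It was at 63.5, 71.9 and 73.9 CPM in the control libraries and at 84.4, 91.1 and 96.5 CPM in *Neuid* KD. The groups did not overlap here either, although the step between them was much smaller than for *Fabp7*. The means were 69.6 ± 4.78 and 90.8 ± 4.31 CPM (SD, n = 6 each), which is a rise of 0.38 on the log2 scale (standard error 0.0533, adjusted p = 9.0e-05 in edgeR). Of the distinct stretches of 50 bases (the read length) in its annotated transcripts, 5.48% also occur in other annotated genes, all of them processed pseudogenes. The most abundant of these, *Gm6166*, averaged 1.68 CPM over control libraries and 2.03 CPM over *Neuid* KD libraries.

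*Fabp3*, the heart-type binding protein, lies on the plus strand of chromosome 4 (130308595 to 130315463). Its control libraries were at 11.8, 13.1 and 15.3 CPM and its *Neuid* KD libraries at 10.7, 11.4 and 13.4 CPM. The ranges overlapped, with 4 of 6 *Neuid* KD libraries below the lowest control library. On the log2 scale the difference was -0.19 with a standard error of 0.0743, and the adjusted p was 0.155 in edgeR and 0.199 in DESeq2. The call depended on the setting: *Fabp3* was called lower with upper-quartile normalization (-0.25, adjusted p = 0.0328), in the libraries with few background reads defined below (-0.38, adjusted p = 0.0317) and without *Neuid* KD replicate 6 (-0.26, adjusted p = 0.049). Over its 22 alternative fits, the adjusted p ran from 0.0317 to 0.966. Of its stretches of 50 bases, 37.3% also occur in other annotated genes, 29.2% in the pseudogene *Fabp3-ps1*, which averaged 0.153 CPM over control libraries and 0.196 CPM over *Neuid* KD libraries, and the rest on the opposite strand in *Zcchc17* and *Gm10570*.

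Levels of different genes are compared per kilobase of annotated exon. On that scale, *Fabp7* made up 85.2% ± 0.793 (SD, n = 6) of the summed level of *Fabp7*, *Fabp5* and *Fabp3* in control libraries and 93.6% ± 0.39 (SD, n = 6) in *Neuid* KD. The share of *Fabp5* went from 8.09% ± 0.264 to 4.11% ± 0.237, and that of *Fabp3* from 6.75% ± 0.692 to 2.31% ± 0.279. In CPM without division by length, these shares were 20.5% and 11.0% for *Fabp5* and 3.95% and 1.42% for *Fabp3*, so the size of a share depends on the scale while its direction did not. So *Fabp5* took a smaller share of the 3 genes although its own level rose. The share of *Fabp7* was between 83.8% and 86.0% in each control library and between 93.0% and 94.1% in each *Neuid* KD library. These shares are a description and were not tested.

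**Figure D2:**
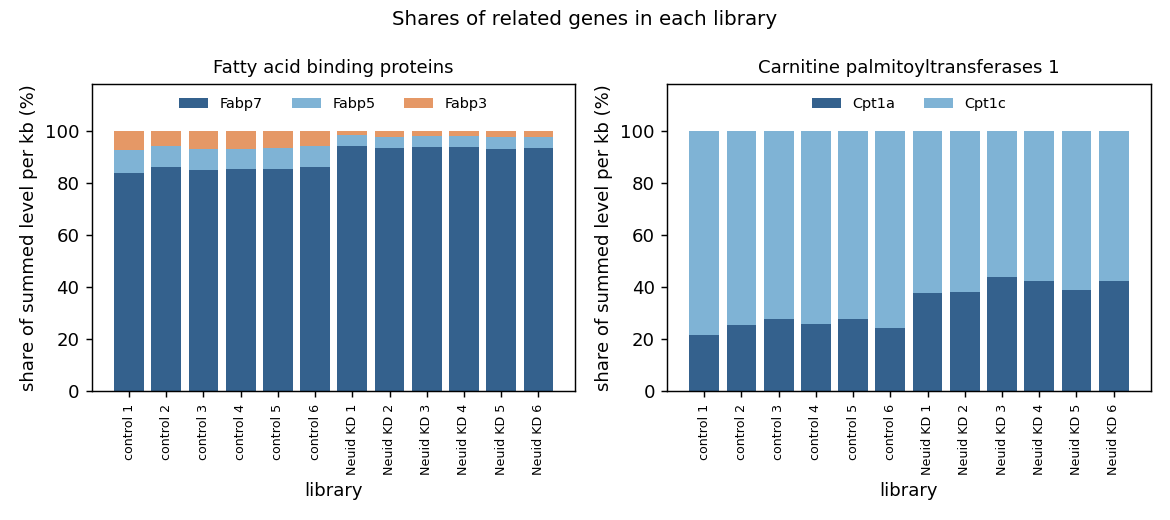
Share of each gene in the summed level per kb (%), 1 bar per library, for *Fabp7*, *Fabp5* and *Fabp3* (left) and for *Cpt1a* and *Cpt1c* (right). The share of *Fabp7* was higher in each *Neuid* KD library than in any control library, and so was that of *Cpt1a*.

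The list of other fatty acid and acyl-CoA binding proteins held 8 genes, of which 1 had enough reads to be tested. That gene was *Dbi*, the acyl-CoA binding protein also known as diazepam binding inhibitor. It rose from 78.1 ± 5.49 to 164 ± 15.8 CPM (SD, n = 6 each), a rise of 1.07 on the log2 scale with an adjusted p of 6.6e-09. The other 7, which include the liver, intestinal and adipocyte types, averaged under 1 CPM, and each was at 0 in at least 1 library.

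*Acsbg1*, the bubblegum acyl-CoA synthetase, activates long and very long chains and is known as a gene of astrocytes. It lies on the minus strand of chromosome 9 (54604877 to 54661870). The lowest, median and highest control libraries were at 14.7, 15.7 and 17.3 CPM, and the *Neuid* KD libraries were at 60.6, 65.8 and 77.1 CPM. No *Neuid* KD library came near the control range, and *Neuid* KD replicate 6 was the highest. The means were 15.9 ± 0.939 and 66.7 ± 6.25 CPM (SD, n = 6 each). Its rise by 2.06 on the log2 scale, with a standard error of 0.0656, was the largest among the 10 genes, and its adjusted p was 1.5e-12 in edgeR.

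Over the 12 libraries, the 5 genes whose log2 CPM followed that of *Acsbg1* most closely, among 15204 genes compared, were *Bcan*, *Pla2g7*, *Rftn2*, *Gja1* and *Ntm*. Their Pearson r with it lay between 0.993 and 0.997. The libraries form 2 groups that differ in all of these genes, so these values describe that difference and are given with no p. The log2 fold changes were 1.88 for *Bcan*, 2.54 for *Pla2g7*, 1.52 for *Rftn2*, 2.27 for *Gja1* and 1.88 for *Ntm*, and each was called.

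Of 12 tested genes in the list of fatty acid uptake and activation, 3 rose and 1 fell, with a median log2 fold change of 0.00. DESeq2 called 3 higher and 2 lower, upper-quartile normalization gave 6 calls, and 4 were higher and 4 lower at an unadjusted p under 0.05. *Acsf2*, a mitochondrial acyl-CoA synthetase, rose by 1.10 (adjusted p = 1.8e-04), *Acss1*, the mitochondrial acetyl-CoA synthetase, by 0.95 (adjusted p = 2.3e-08), and *Slc27a1*, a fatty acid transport protein, by 0.73 (adjusted p = 3.7e-08). *Acsl4*, a long-chain synthetase that prefers arachidonic acid and the most abundant of the list per kb in control libraries but not in *Neuid* KD, fell by 0.27 (adjusted p = 0.0154, between 6.9e-07 and 0.368 over its alternatives). Of the 7 acyl-CoA thioesterases, which release the fatty acid again, 2 rose and 5 were not called (median 0.07). These were *Acot1* (0.97, adjusted p = 1.9e-06) and *Acot11* (0.77, adjusted p = 4.8e-05), while *Acot7*, by far the most abundant, differed by 0.03 (adjusted p = 0.806), or by -0.02 with upper-quartile normalization.

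*Cpt1a* encodes the carnitine palmitoyltransferase of the outer mitochondrial membrane that is found in liver and in astrocytes, and it controls the entry of long chains. It lies on the plus strand of chromosome 19 (3322334 to 3385733). Control libraries were at 15.2, 19.2 and 22.3 CPM and *Neuid* KD libraries at 31.9, 35.1 and 42.7 CPM. All 6 *Neuid* KD libraries were above the highest control library. The means were 19.0 ± 2.44 and 35.9 ± 3.91 CPM (SD, n = 6 each), a rise of 0.92 on the log2 scale with a standard error of 0.0858 and an adjusted p of 8.2e-07 in edgeR.

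*Cpt1c*, the neuronal member of the family, sits in the endoplasmic reticulum and has little transferase activity. It lies on the minus strand of chromosome 7 (44959372 to 44974851) and the lowest, median and highest levels were 37.1, 40.3 and 45.3 CPM for the control group and 37.0, 38.8 and 40.3 CPM for the *Neuid* KD group. The ranges overlapped, with the highest control libraries above every *Neuid* KD library. *Cpt1c* differed by -0.08 on the log2 scale (standard error 0.052, adjusted p = 0.52 in edgeR, 0.439 in DESeq2) and was called in none of the 22 alternative fits.

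Per kb, *Cpt1a* made up 25.4% ± 2.29 (SD, n = 6) of the summed level of *Cpt1a* and *Cpt1c* in control libraries and 40.4% ± 2.59 (SD, n = 6) in *Neuid* KD. Its share was between 21.5% and 27.8% in the control libraries and between 37.6% and 43.7% in the *Neuid* KD libraries. Per kb, *Cpt1c* was the more abundant of the pair in each library. In CPM without division by length, *Cpt1a* was above *Cpt1c* in *Neuid* KD replicate 3, at 42.7 against 40.3 CPM.

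*Cpt2*, the transferase of the inner mitochondrial membrane, lies on the minus strand of chromosome 4 (107903981 to 107923610). It had few reads, with control libraries at 2.54, 3.15 and 4.83 CPM and *Neuid* KD libraries at 3.08, 4.14 and 6.40 CPM. The ranges overlapped, and *Neuid* KD replicate 1 stood above the other libraries. The difference of 0.32 had a standard error of 0.193 (adjusted p = 0.447 in edgeR), the widest among the 10 genes. Of the 4 tested genes in the list of the remaining carnitine shuttle, 1 rose, *Crot*, the peroxisomal carnitine octanoyltransferase (0.57, adjusted p = 9.5e-05). *Crat*, the carnitine acetyltransferase and the most abundant of the list per kb, was at 0.16 (adjusted p = 0.0592, between 0.0467 and 0.702 over its alternatives). The median of the list was 0.20.

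In β-oxidation, *Acadl* encodes the long-chain acyl-CoA dehydrogenase, on the minus strand of chromosome 1 (66830839 to 66863277). The control group had 20.8, 27.4 and 29.2 CPM and the *Neuid* KD group 46.8, 54.7 and 58.8 CPM. The lowest *Neuid* KD library, replicate 5, was well above the highest control library. The means were 26.3 ± 3.32 and 53.6 ± 4.48 CPM (SD, n = 6 each), so that *Acadl* rose by 1.02 on the log2 scale (standard error 0.0798, adjusted p = 8.4e-08 in edgeR).

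*Acadvl*, the very long-chain dehydrogenase that shares this first step, lies on the minus strand of chromosome 11 (70010183 to 70015411). Its control libraries were at 18.5, 23.0 and 25.3 CPM and its *Neuid* KD libraries at 20.3, 23.8 and 24.4 CPM. The *Neuid* KD range lay within the control range. With a standard error of 0.072, the groups differed by 0.04 on the log2 scale (adjusted p = 0.867 in edgeR, between 0.732 and 0.995 over its alternatives), or by -0.02 with upper-quartile normalization. Of its stretches of 50 bases, 26.9% occur on the opposite strand in *Dvl2*, whose exons overlap its own and which averaged 15.1 CPM over control libraries and 14.0 CPM over *Neuid* KD libraries. A test of the difference between *Acadl* and *Acadvl* was not run.

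*Hadhb*, the thiolase subunit of the mitochondrial trifunctional protein, lies on the plus strand of chromosome 5 (30155248 to 30184593), and *Hadha*, which encodes the other subunit, starts 86 bases away on the minus strand. For *Hadhb* the control libraries were at 2.77, 3.98 and 4.39 CPM, those of *Neuid* KD at 2.88, 4.02 and 5.31 CPM. The groups overlapped, with 2 of 6 *Neuid* KD libraries above the highest control library. Their difference was 0.07 on the log2 scale, under its standard error of 0.158 (adjusted p = 0.881 in edgeR). Of its stretches of 50 bases, 19.7% also occur on the same strand in other annotated genes, mostly the pseudogene *Gm13910* (18.1%).

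*Hadha*, named here after its values were seen because of this position, had control libraries at 69.8, 79.1 and 85.4 CPM and *Neuid* KD libraries at 104, 107 and 111 CPM. Its groups did not overlap, and it rose by 0.44 (adjusted p = 9.3e-06). *Garem2*, whose exons overlap those of *Hadha* on the opposite strand, rose as well (from 13.4 to 20.3 CPM, log2 fold change 0.59, adjusted p = 1.33e-05). Per kb, *Hadha* was at 9.08 in control against 0.577 for *Hadhb*, so the genes of the 2 subunits were measured at very different levels. The kilobases are those of all annotated exons together, which lowers the value of a gene whose transcripts use only some of them. The 19.7% of shared stretches of *Hadhb*, against 0.341% for *Hadha*, is likewise a share over all annotated transcripts together. The part of shared sequence in the low level of *Hadhb* was not tested.

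Of the 15 other tested genes of mitochondrial β-oxidation, *Hadha* among them, 8 rose and none fell in edgeR, and the median log2 fold change was 0.26. At an unadjusted p under 0.05, 9 were higher and 0 lower, and DESeq2 called 7 higher and 0 lower. The largest changes were those of *Decr1*, a dienoyl-CoA reductase for unsaturated chains (from 3.51 ± 0.584 to 8.81 ± 0.821 CPM, SD, n = 6 each, log2 fold change 1.32, adjusted p = 2.9e-07), and *Eci1*, an enoyl-CoA isomerase for such chains (0.97, adjusted p = 1.8e-04). The smallest among the called genes were *Echs1*, the short-chain enoyl-CoA hydratase (0.18, adjusted p = 0.0455, between 0.0227 and 0.656 over its alternatives), and *Acad11* (0.26, adjusted p = 0.0399, between 0.0118 and 0.572). *Echs1* was called in 3 of its 22 alternative fits and *Acad11* in 4 of 22, so these calls depend on the setting. *Acaa2*, the thiolase for medium chains and the most abundant of the list per kb, was at -0.09 (adjusted p = 0.654).

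**Figure D3:**
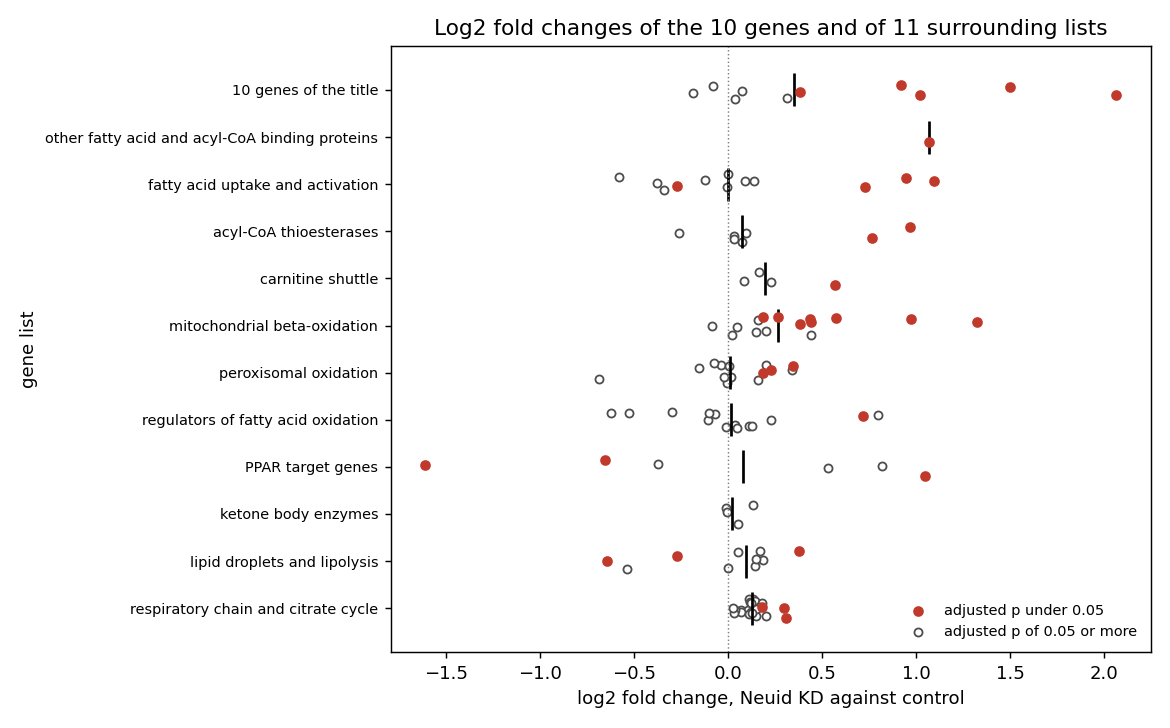
Log2 fold change (*Neuid* KD against control) of each tested gene, for the 10 genes in the top line and for the 11 lists of surrounding genes below it, with called genes filled in red and each list's median as a bar. The medians of the 10 genes and of mitochondrial β-oxidation are 0.35 and 0.26, and that of fatty acid uptake and activation is 0.00.

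In all, 110 of 125 genes in 11 lists around the 10 genes were tested, and 29 (26.4%) were called, 24 higher and 5 lower, with a median of 0.12. Over all tested genes, 8.72% were called, 6.31% higher and 2.42% lower. These lists too were chosen with earlier results of these data known. Of the 14 genes of peroxisomal oxidation, 3 rose by small amounts (median 0.01), among them *Hsd17b4*, the multifunctional enzyme (0.35, adjusted p = 3.2e-04), and *Abcd3*, a transporter of the peroxisomal membrane (0.19, adjusted p = 0.0299, between 0.00317 and 0.629, called in 10 of 22). Of 14 regulators of fatty acid oxidation, 1 was called (median 0.02), the coactivator gene *Ppargc1a*, which rose by 0.72 (adjusted p = 6.6e-07). Among 6 tested targets of the PPAR receptors, 1 rose and 2 fell (median 0.08). *Pdk4*, a pyruvate dehydrogenase kinase, rose by 1.05 (adjusted p = 0.0013, between 6.1e-06 and 0.0677), *Txnip*, a thioredoxin-binding protein, fell by 0.65 (adjusted p = 0.00143), and *Ucp2*, a mitochondrial carrier, fell by 1.61 (adjusted p = 0.0382, between 7.0e-06 and 0.0943, called in 11 of 22) at a control mean of 3.1 ± 1.32 CPM (SD, n = 6). Genes of the PPAR list thus moved in both directions.

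None of the 4 tested ketone body enzymes was called in edgeR or DESeq2, and none had an unadjusted p under 0.05 (median 0.02). The most abundant was *Oxct1*, the transferase with which ketone bodies are used, at 0.05 (adjusted p = 0.748), and with upper-quartile normalization its value was below 0 (-0.01). Of 10 tested genes of lipid droplets and lipolysis, 1 rose and 2 fell (median 0.10): *Mgll*, the monoglyceride lipase, rose by 0.38 (adjusted p = 8.5e-05), *Plin3*, a coat protein of droplets, fell by 0.64 (adjusted p = 0.00486, between 5.3e-04 and 0.232), and *Dgat2*, which makes triglyceride, fell by 0.27 (adjusted p = 0.0112, between 3.2e-04 and 0.168). *Lpl*, a lipase and the most abundant of them, was at 0.00 (adjusted p = 0.997), below 0 with RLE (-0.02) and upper-quartile normalization (-0.06). Of 23 genes of the respiratory chain and citrate cycle, 3 rose by small amounts. All 23 had log2 fold changes above 0, and 15 were higher and 0 lower at an unadjusted p under 0.05. The number called ran from 0 without a filter on low counts to 10 with 1 RUVs factor or the background as a covariate, and it was 1 without *Neuid* KD replicate 2. Among the 3 were *Cycs*, cytochrome c (0.31, adjusted p = 0.00705, between 4.1e-04 and 0.193 over its alternatives), and *Cs*, citrate synthase (0.18, adjusted p = 0.0232, between 0.00158 and 0.596, called in 10 of 22). The median was 0.13, and *Atp5a1*, the most abundant, was at 0.14 (adjusted p = 0.132).

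Per kb, the order of the 10 genes in control libraries was *Fabp7* (206), *Fabp5* (19.5), *Fabp3* (16.3), *Acadl* (13.1), *Acadvl* (8.38), *Cpt1c* (7.29), *Acsbg1* (4.42), *Cpt1a* (2.48), *Cpt2* (1.4) and *Hadhb* (0.577), in mean CPM per kb. The ranges of neighbours overlapped for *Fabp5* and *Fabp3*, *Fabp3* and *Acadl*, *Acadvl* and *Cpt1c*, and *Cpt1a* and *Cpt2*. Within each control library *Fabp5* was nevertheless above *Fabp3*, and the other pairs were not compared library by library here. The order depends on the annotated exon length, which is 3567 bases for *Fabp5* and 823 for *Fabp3*. In CPM without division by length, their control means were 69.6 and 13.4. In *Neuid* KD the order was *Fabp7* (582), *Acadl* (26.8), *Fabp5* (25.5), *Acsbg1* (18.5), *Fabp3* (14.3), *Acadvl* (8.61), *Cpt1c* (6.91), *Cpt1a* (4.7), *Cpt2* (1.76) and *Hadhb* (0.609), and *Acadl* and *Fabp5* were the only neighbours with overlapping ranges. *Acsbg1* thus moved from below *Cpt1c* to above *Fabp3*. Added up by library in CPM, the 10 genes came to 420, 486 and 501 CPM (lowest, median and highest) in control and 969, 1062 and 1140 CPM in *Neuid* KD, and *Fabp7* held 54.5% of the sum of the means in control and 68.9% in *Neuid* KD.

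Libraries also differed within their group. Control replicate 1 had the lowest level of *Fabp7*, *Cpt1a* and *Acadl* among the control libraries, at 218, 15.2 and 20.8 CPM, but the second highest of *Acsbg1*, at 16.7 CPM. *Neuid* KD replicate 5 had the lowest level of *Fabp7*, *Acsbg1* and *Acadl* in its group, at 655, 60.6 and 46.8 CPM. The highest library of the *Neuid* KD group was replicate 1 for *Fabp7* and *Fabp5*, replicate 3 for *Cpt1a* and *Acadl*, and replicate 6 for *Acsbg1*.

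Reads on 2012 chemosensory receptor genes, which hippocampal cultures are not known to express at a high level, served as a measure of background reads. Their sums ran from 25.9 to 718 CPM in the control group and from 25.6 to 656 CPM in the *Neuid* KD group. At least 100 CPM was found in 7 libraries (4 control, 3 *Neuid* KD) and less in 5 (2 control, 3 *Neuid* KD). Within these classes, the log2 fold change was 1.55 and 1.38 for *Fabp7* (at least 100 CPM and less), 0.43 and 0.28 for *Fabp5*, 2.11 and 2.01 for *Acsbg1*, 0.95 and 0.79 for *Cpt1a*, and 1.09 and 0.87 for *Acadl*. Each of the 5 genes was called in both classes, where 3.62% and 10.8% of all tested genes were called. *Fabp3* was at -0.08 (adjusted p = 0.966) in the class with more background and -0.38 (adjusted p = 0.0317) in the other, and the difference between the classes was not tested.

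The split into higher and lower genes depends on normalization. Of the called genes, 72.3% were higher with the TMM method and 45.5% with upper-quartile normalization, which moved the median of all genes by -0.06. The 5 called genes were called higher in all 22 alternative fits, and their smallest log2 fold changes in these were 0.28 for *Fabp5*, 1.38 for *Fabp7*, 1.99 for *Acsbg1*, 0.79 for *Cpt1a* and 0.87 for *Acadl*. The highest adjusted p among these fits was 0.0135, for *Fabp5* with GC and length offsets.

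Because several of the 10 genes are known from glia, markers of the cell types that such a culture can hold were read beside them. In bulk RNA, fewer cells of a type and less RNA per cell cannot be told apart. Of 18 astrocyte markers, 17 were tested and all 17 rose, with log2 fold changes from 0.47 to 2.64 and a median of 1.31, beside 2.06 for *Acsbg1*, 1.5 for *Fabp7*, 1.02 for *Acadl*, 0.92 for *Cpt1a* and 0.38 for *Fabp5*. Their summed level was 2019, 2348 and 2546 CPM in the lowest, median and highest control library and 3865, 4438 and 4598 CPM in *Neuid* KD. The most abundant was *Slc1a2*, the glial glutamate transporter, with 50.8% of the sum in control, 42.3% in *Neuid* KD and a log2 fold change of 0.63 (adjusted p = 1.8e-05). *S100b*, a calcium-binding protein, rose by 2.64 (adjusted p = 3.1e-09) and *Gja1*, the main gap junction protein of astrocytes, by 2.27 (adjusted p = 3.0e-13), while *Gjb6* was not tested and was at 0 in some libraries. The 6 control libraries stood in the same order by this sum as by *Fabp7*. In the *Neuid* KD group, replicate 3 had the highest sum and the highest levels of *Cpt1a* and *Acadl*, and replicate 1 had the lowest sum, the lowest *Slc1a2* and the highest *Fabp7*. The part of the astrocyte markers' rise in the rise of the 5 genes was not tested.

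Of 10 markers of radial glia and progenitors, 5 rose and 2 fell, with a median of 0.27. *Vim*, an intermediate filament and the most abundant, fell by 0.74 (adjusted p = 3.1e-09), while *Hes5*, a Notch effector, rose by 1.69 (adjusted p = 4.4e-06) and *Sox2*, a progenitor factor, by 0.89 (adjusted p = 3.7e-08). Their summed level was 792 to 872 CPM in control and 649 to 696 CPM in *Neuid* KD, and *Vim* held 67.1% of it in control and 49.1% in *Neuid* KD. Of 8 markers of oligodendrocyte precursors, 3 rose, namely *Olig1*, the most abundant (1.47, adjusted p = 1.3e-10), *Olig2* (1.67, adjusted p = 8.8e-11) and *Lhfpl3* (0.54, adjusted p = 0.0499, between 0.00365 and 0.283 over its alternatives, called in 4 of 22). The other 5 were not called, and DESeq2 called 2 higher. The log2 fold changes of the 8 ran from -0.77 to 1.67, with a median of 0.30. Their sum went from between 123 and 136 CPM to between 276 and 320 CPM, of which *Olig1* held 60.65% in control and 72.99% in *Neuid* KD. The part of either list in the levels of the 10 genes was not tested.

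The other glial and vascular markers were low. Of 8 markers of myelinating oligodendrocytes, 4 were tested and 1 was called, *Mbp*, a myelin protein, which fell by 0.66 (adjusted p = 9.7e-04, between 3.4e-05 and 0.0551 over its alternatives), and 5 were at 0 in at least 1 library, while *Cnp*, the most abundant, was at 0.11 (adjusted p = 0.636). Their sum was 26.3 to 33.8 CPM in control and 23.1 to 34.3 CPM in *Neuid* KD. Of 10 microglia markers, 5 were tested and 7 were at 0 in at least 1 library, and the sums were 14.5 to 22.6 and 12.8 to 21.6 CPM. Endothelial markers (7 of 8 tested) summed to 7.26 to 25.9 and 7.07 to 24.3 CPM, with *Kdr* the most abundant (-0.02, adjusted p = 0.968), and fibroblast and mural markers (9 of 9 tested) to 40.1 to 72.3 and 37.6 to 61.4 CPM, with *Dcn* the most abundant (-0.05, adjusted p = 0.765). No marker of microglia, endothelial cells, or fibroblasts and mural cells was called by edgeR or DESeq2, and none had an unadjusted p under 0.05. Most of their log2 fold changes were nevertheless below 0, with medians of -0.31 for microglia (0 of 5 above 0), -0.30 for endothelial cells (0 of 7) and -0.50 for fibroblasts and mural cells (2 of 9). In alternative fits, 3 fibroblast and mural markers were called with 1 RUVs factor and with the background as a covariate and 1 within each class of background, and 1 endothelial marker was called with the covariate. These sums were highest in the 3 libraries with the most background reads, control replicates 1 and 4 and *Neuid* KD replicate 1, with 24.3 to 25.9 CPM for endothelial markers against 7.07 to 9.24 CPM in the 5 libraries with less than 100 CPM of background. The part of background reads in the medians was not tested.

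Neuron markers, which the labelled cell type should show, were the most abundant of the marker lists in both groups. All 10 were tested, and they summed to 6282, 7018 and 7351 CPM in the lowest, median and highest control library and to 6123, 7063 and 7317 CPM in *Neuid* KD. *Map2*, the dendritic microtubule protein and the most abundant, was at -0.01 (adjusted p = 0.964), and *Elavl4*, a neuronal RNA-binding protein, was the 1 called, at -0.21 (adjusted p = 0.0161, between 3.0e-05 and 0.446). The number of neuron markers called was 0 to 3 over the alternatives, 3 of them with upper-quartile normalization. The sum of neuron markers exceeded that of astrocyte markers in each group, and both cell types' markers were present in every library. Of 10 markers of dividing cells, none was called in edgeR or DESeq2, with 1 higher and 1 lower at an unadjusted p under 0.05, and their sum was 198 to 216 CPM in control and 185 to 232 CPM in *Neuid* KD, *Mki67* being the most abundant (-0.08, adjusted p = 0.507).

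Since *Fabp7*, *Acsbg1*, *Cpt1a* and *Acadl* moved together by more than 0.5, their promoter sequences are printed, with that of *Hadhb* because it spans the gap to *Hadha*. Promoters of 9 of the 10 genes were found by symbol, *Fabp5* being the exception. They are RefSeq sequences on GRCm38.p6, 250 bases before to 50 bases after the RefSeq start, 5′ to 3′ on the strand of the gene. That strand is plus for *Fabp7*, *Cpt1a* and *Hadhb* and minus for *Acsbg1* and *Acadl*. For *Cpt1a* the RefSeq start lies downstream of the gene start given above, so its window lies wholly within the gene. Capitals mark matches, on either strand, to motifs that were chosen after the values were seen: the TATA box TATAAA, the CCAAT box CCAAT, the GC box GGGCGG, the nuclear receptor hexamer AGGTCA, its direct repeat with any 1 base between the copies, the nuclear factor I motif of TTGGC and GCCAA with any 5 bases between them, and the RBPJ motif TGGGAA.
Fabp7 chr10:57784673-57784972: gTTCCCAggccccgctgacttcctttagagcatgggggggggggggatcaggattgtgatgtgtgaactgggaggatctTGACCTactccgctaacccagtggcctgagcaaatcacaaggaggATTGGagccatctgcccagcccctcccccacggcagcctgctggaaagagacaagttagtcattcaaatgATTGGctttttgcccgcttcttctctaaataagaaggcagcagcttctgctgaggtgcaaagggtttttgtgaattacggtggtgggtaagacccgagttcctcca
Acsbg1 chr9:54661836-54662135: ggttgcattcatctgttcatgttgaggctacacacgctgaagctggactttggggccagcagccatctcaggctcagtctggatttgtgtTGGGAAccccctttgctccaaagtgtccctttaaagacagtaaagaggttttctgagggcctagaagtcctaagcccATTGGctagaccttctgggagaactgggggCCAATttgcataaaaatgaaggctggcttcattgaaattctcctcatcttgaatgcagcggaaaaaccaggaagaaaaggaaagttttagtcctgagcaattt
Cpt1a chr19:3323051-3323350: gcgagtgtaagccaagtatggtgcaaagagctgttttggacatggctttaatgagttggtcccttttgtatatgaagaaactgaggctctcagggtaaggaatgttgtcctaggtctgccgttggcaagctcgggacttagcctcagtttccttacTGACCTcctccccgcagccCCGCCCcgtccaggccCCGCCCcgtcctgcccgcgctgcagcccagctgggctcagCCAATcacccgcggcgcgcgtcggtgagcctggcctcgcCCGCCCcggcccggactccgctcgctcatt
Acadl chr1:66863260-66863559: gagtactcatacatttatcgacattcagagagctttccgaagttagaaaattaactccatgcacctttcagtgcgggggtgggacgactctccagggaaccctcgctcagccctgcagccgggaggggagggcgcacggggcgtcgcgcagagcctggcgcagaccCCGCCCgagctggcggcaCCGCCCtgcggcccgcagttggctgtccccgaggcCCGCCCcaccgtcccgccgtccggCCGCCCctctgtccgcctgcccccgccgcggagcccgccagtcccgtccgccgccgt
Hadhb chr5:30155003-30155302: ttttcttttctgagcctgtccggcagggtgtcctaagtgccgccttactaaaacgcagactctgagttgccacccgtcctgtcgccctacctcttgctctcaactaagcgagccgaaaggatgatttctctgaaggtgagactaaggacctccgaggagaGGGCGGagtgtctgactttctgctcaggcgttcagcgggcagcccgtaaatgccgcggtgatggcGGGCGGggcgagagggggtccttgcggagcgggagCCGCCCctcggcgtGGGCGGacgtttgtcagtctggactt

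These motifs occur in many promoters: among 32851 RefSeq promoters of this length, 13.6% hold TATAAA, 37.4% CCAAT, 35.7% GGGCGG, 16.3% AGGTCA, 0.0396% the direct repeat, 0.0365% the nuclear factor I motif and 25.6% TGGGAA. The promoters of *Fabp7* and *Acsbg1* each hold 2 CCAAT boxes and 1 RBPJ motif and no GC box, and that of *Fabp7* also holds 1 AGGTCA. The promoter of *Cpt1a* holds 3 GC boxes, 1 CCAAT box and 1 AGGTCA, and those of *Acadl* and *Hadhb* hold 4 GC boxes each and no other of these motifs. So the 5 promoters fall into a pair without and 3 with GC boxes, and *Hadhb*, which was not called, is among the latter. The promoters of the other genes not called hold some of the same motifs: *Acadvl* 1 RBPJ motif and 1 AGGTCA, *Cpt1c* 1 GC box, 1 CCAAT box and 1 AGGTCA, *Cpt2* 3 GC boxes and *Fabp3* none of them. Their GC content was 54.0% for *Fabp7*, 47.0% for *Acsbg1*, 62.3% for *Cpt1a*, 70.3% for *Acadl* and 60.7% for *Hadhb*, beside a median of 52.7% over all promoters. None of the 9 promoters holds TATAAA, the direct repeat or the nuclear factor I motif. A match is a description of the letters in this window and not a bound site.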

How the data were processed

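The authors aligned 50 bp single reads of a stranded total RNA kit (SMARTer Pico) to mm10 with STAR and deposited the counts of reads on each gene from featureCounts, without normalization. The strand setting of featureCounts is not given in the sources used here. All 12 libraries were used and 0 were left out. The deposited counts were scaled to CPM with the TMM method of edgeR 4.0.16 (limma 3.58.1, R 4.3.3), genes with low counts were left out with its filterByExpr function, and the groups were compared with its quasi-likelihood test, with the group as the only term. P-values were adjusted over all 19578 tested genes with the Benjamini-Hochberg method, and standard errors are the log2 fold change divided by the square root of its F statistic. DESeq2 1.42.0 and the other alternatives of the closing part were run 1 choice at a time. Positions and exon lengths come from GENCODE M21 on GRCm38. Tables, shared stretches of 50 bases and promoters were computed with Python 3.11.15. The fit was tested on simulated data. The lowest counts among the 10 genes were those of *Cpt2*, with 61 to 120 reads in a library, and *Hadhb*, with 55 to 110.

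The 10 genes and the lists around them were chosen with earlier results of these data known. The genes named from the pathway lists are all called genes where a list has up to 4 of them, otherwise the 2 with the highest and the 2 with the lowest log2 fold change among the called, and the most abundant per kb. From the marker lists they are the most abundant in CPM and up to 2 more with the largest change among the called. Of the genes this rule names, 3 are not reported here. For *Acsbg1* the 5 genes with the highest r, at a mean of at least 1 CPM, are named. *Hadha*, *Gjb6*, the genes that overlap the 10 genes or share sequence with them, and the promoter motifs were added after values were seen. Libraries were put in a class with at least 100 CPM on olfactory, vomeronasal and bitter taste receptor genes or in one with less.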

Additional observations from a re-analysis of the deposited data

Results flagged for a closer look

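For each gene named above, each summed list and each share, the 6 libraries of a group were searched for 1 library far from the rest. The gap from the highest or lowest library to its neighbour was divided by the range of the group, and values above Dixon's limit for a group of 6 are given. Of 178 groups, 13 passed, where chance gives about 1 in 20, or 8.9.

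In *Neuid* KD replicate 1, which has the lowest read count of all libraries (11152556) and 656 CPM of background, *Cpt2* was the highest of its group at 6.40 CPM, the others lying between 3.08 and 4.20 (ratio 0.663). In the same library *Eci1* was the highest (8.50 CPM, others 5.13 to 6.33, ratio 0.644), and so were the sums of the PPAR target genes (25.9 CPM, others 14.7 to 18.9, ratio 0.629) and of the fibroblast and mural markers (61.4 CPM, others 37.6 to 46.5, ratio 0.628). *Slc1a2* (1425 CPM, others 1825 to 2004, ratio 0.690) and *Map2* (2106 CPM, others 2594 to 2790, ratio 0.714) were the lowest there.

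In control replicate 1, which has the most background of all libraries (718 CPM), *Dbi* was the lowest at 67.1 CPM, with the others between 79.0 and 82.1 (ratio 0.793). The sum of the list that *Dbi* leads was the lowest with it (68.9 CPM, others 79.0 to 82.7, ratio 0.734).

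In *Neuid* KD replicate 6, *Bcan* (237 CPM, others 185 to 199, ratio 0.744) and *Mbp* (6.75 CPM, others 4.51 to 5.15, ratio 0.716) were the highest and *Acaa2* the lowest (27.4 CPM, others 34.6 to 38.5, ratio 0.652). In *Neuid* KD replicate 5, *Dcn* was the lowest (18.7 CPM, others 21 to 22, ratio 0.711), and the share of *Fabp5* among the 3 binding proteins was the highest (4.56%, others 3.87% to 4.10%, ratio 0.665). What set these libraries apart was not tested.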

How the results depend on the processing

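Each of 64 named and tested genes was fitted under 22 alternatives: RLE and upper-quartile normalization, DESeq2, no filter, 1 RUVs factor, background as a covariate, the replicate number as a block, GC and length offsets, each class of background alone and 12 fits without 1 library. For *Neuid* and for 36 of the other genes, the direction and the side of the threshold were the same in all of them. The 5 called genes of the 10 are among these. Of the 47 called, 6 lost the call with GC and length offsets.

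The number of genes called, 1708, was 940 without the filter, 2720 with the RUVs factor, 2754 with the background covariate, 856 in the libraries with at least 100 CPM of background, 632 with an absolute log2 fold change above 0.5 and 1125 above 0.3. The number called higher, 1235, was 711 without the filter, 651 in the libraries with at least 100 CPM, 477 above 0.5, 797 above 0.3 and 822 to 1208 with 1 library left out, the lowest without *Neuid* KD replicate 2. The number called lower, 473, was 1259 with upper-quartile normalization, 229 without the filter, 982 with the RUVs factor, 992 with the covariate, 205 in the libraries with at least 100 CPM, 799 in those under it, 155 above 0.5 and 355 to 780 with 1 library left out, the highest without *Neuid* KD replicate 1. The pathway genes called, 29, were 19 in the libraries with at least 100 CPM and 15 above 0.5. Over all alternatives, 3 to 9 genes of mitochondrial β-oxidation were called, 3 to 6 of uptake and activation, 0 to 3 of peroxisomal oxidation, 1 to 4 PPAR targets, 1 to 3 of lipid droplets, and 0 or 1 marker of dividing cells. A higher threshold gives fewer calls by construction, and the cause of the other shifts was not tested.

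Without division by length, the shares in control and *Neuid* KD were 75.6% and 87.6% for *Fabp7*, 20.5% and 11.0% for *Fabp5*, 3.95% and 1.42% for *Fabp3*, and 31.7% and 48.0% for *Cpt1a* of its pair, so each moved the same way between the groups, and in 1 library *Cpt1a* passed *Cpt1c*.

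Some log2 fold changes near 0, never called in the setting, changed sign. With upper-quartile normalization this held for *Acadvl* (-0.022), *Acot7* (-0.024), *Oxct1* (-0.005) and *Lpl* (-0.058), and in the libraries under 100 CPM for *Acadvl* (-0.05), *Acot7* (-0.024), *Oxct1* (-0.009), *Lpl* (-0.057), *Cnp* (-0.051) and *Kdr* (0.013). In those with at least 100 CPM it held for *Lpl* (-0.026), *Kdr* (0.063) and *Mki67* (0.017), and with the RUVs factor or the covariate for *Lpl* (-0.026 and -0.02) and *Kdr* (0.041 and 0.028). *Lpl* was also below 0 with RLE (-0.017), DESeq2 (-0.011), and GC and length offsets (-0.066). With 1 library left out, the ranges were -0.021 to 0.065 for *Acadvl*, -0.05 to 0.12 for *Hadhb*, -0.007 to 0.053 for *Acot7*, -0.051 to 0.051 for *Lpl*, -0.132 to 0.094 for *Kdr* and -0.049 to 0.009 for *Map2*.

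Whether the replicate numbers pair the libraries is not settled by these data. The r between same-numbered libraries, over each group's deviations, ran from -0.637 to 0.774. Of 12 libraries, 3 were most like the library of their own number. The r was 0.774, 0.751 and 0.004 for replicates 1, 3 and 6, whose libraries share a class of background. For replicates 2, 4 and 5, whose libraries differ in class, it was -0.454, -0.637 and -0.552. Shared cultures and shared background cannot be told apart by this r. With the replicate number as a block, 1841 genes were called, 5 of the 10 genes among them, and *Lpl* was at -0.001.

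The data hold 1 experiment with 6 libraries a group, whose independence is not stated. Among the 10 genes, standard errors were widest for *Cpt2* (0.193) and *Hadhb* (0.158). RNA levels say nothing of protein or of oxidation itself, and cell types were not separated. *Fabp3*, *Acadvl* and *Hadhb* share a part of their sequence with other genes, and the strand setting of the counts is not given.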
